A study of Mus musculus with 6 samples.

Results

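The genes described here are 32 mouse genes of endoplasmic reticulum (ER) protein folding and the unfolded protein response, of 24493 genes in the deposited table of TPM, the length-normalised transcript abundance scaled to 1000000 per library. They were taken by gene symbol from a list made by function, and all 32 were present and passed the filter on low values. They fall into 15 chaperones and disulfide isomerases, 8 stress sensors and transcription factors, and 9 genes of ER-associated degradation (ERAD) and translocation. RNA was sequenced from KPCY cells of strain C57BL/6, tumour cells of a mouse pancreatic cancer model with a YFP lineage reporter. The cells carried 1 of 3 transduced short hairpin RNAs: the non-targeting shNT, shPthlh oligo #1 (hairpin 1) or shPthlh oligo #2 (hairpin 2), with 2 libraries in each group. The hairpins against Pthlh, which encodes parathyroid hormone-like hormone, were made to compare cells with and without its knockdown. The labels call the cells tumour cells sorted in vivo and also describe culture in DMEM, and animals, age and time are not given in the labels. The design text speaks of a pair of parental clones that the sample labels do not match to hairpins, so clone and hairpin cannot be told apart. The labels do not say whether the 2 libraries of a group came from separate cultures or animals, and the p-values below reflect the variation between such libraries alone, possibly technical.

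Secreted and membrane proteins enter the ER through the Sec61 channel, where chaperones such as BiP (Hspa5) and disulfide isomerases fold them, and proteins that fail to fold are returned to the cytosol and degraded. When unfolded proteins accumulate, the sensors IRE1 (Ern1), PERK (Eif2ak3) and ATF6 start the unfolded protein response: IRE1 splices Xbp1 mRNA, PERK slows translation and raises ATF4 and CHOP (Ddit3), and cleaved ATF6 enters the nucleus. The exocrine pancreas is a secretory tissue in which this system is known to be prominent. Sensor activity is set by phosphorylation, cleavage and splicing, and gene-level TPM values measure none of these.

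The DNA element through which ATF6 and XBP1 are known to act on chaperone promoters, the ER stress response element (ERSE), was searched for because several of the genes below share it and yet differed in their change. RefSeq promoter windows on GRCm38.p6, 300 bases from 250 before to 50 after each gene's start, were held for 27 of the 32 genes. ERSE was searched on both strands as CCAAT and CCACG with 9 bases of any kind between them. It was in 8 of the 27 windows (29.6%), against 39 of 32851 windows overall (0.119%) and 14 of 8886 tested genes with a window (0.158%). The shorter ERSE-II, ATTGG and CCACG with 1 base between them, was in 2 of the 27 (7.41%), Herpud1 and Dnajb11, against 0.0365% of all windows. The UPRE core TGACGTGG and the ATF4-type CARE-like TGATGNAAT, also read on both strands, were in 0 of the 27, against 0.676% and 0.965% of all windows. Only runs with these exact letters counted. A run that differed from the CARE-like letters in the last base, as on the opposite strand in Herpud1, was left out. No match of ERSE-II overlapped an ERSE match in these genes. The 250 bases before the start are shown for Hspa5 (chr2:34771840-34772089, plus strand), Hsp90b1 (chr10:86705445-86705694, minus strand) and Herpud1 (chr8:94386179-94386428, plus strand), read 5′ to 3′ along the gene, with the fixed letters of each match in capitals.
Hspa5: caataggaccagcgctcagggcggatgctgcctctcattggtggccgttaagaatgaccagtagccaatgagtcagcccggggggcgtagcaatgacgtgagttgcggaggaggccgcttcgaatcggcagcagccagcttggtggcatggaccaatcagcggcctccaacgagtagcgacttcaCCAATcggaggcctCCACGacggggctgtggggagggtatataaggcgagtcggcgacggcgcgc
Hsp90b1: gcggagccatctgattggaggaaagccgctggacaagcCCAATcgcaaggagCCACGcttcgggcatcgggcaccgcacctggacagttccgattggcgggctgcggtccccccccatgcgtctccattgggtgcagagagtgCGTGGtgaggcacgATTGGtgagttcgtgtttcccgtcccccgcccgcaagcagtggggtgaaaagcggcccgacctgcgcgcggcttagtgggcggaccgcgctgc
Herpud1: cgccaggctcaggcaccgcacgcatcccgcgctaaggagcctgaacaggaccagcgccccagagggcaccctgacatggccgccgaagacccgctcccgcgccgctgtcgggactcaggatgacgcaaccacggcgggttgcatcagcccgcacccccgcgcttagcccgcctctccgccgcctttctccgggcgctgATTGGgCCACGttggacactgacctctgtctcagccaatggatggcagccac
Hspa5 held 1 exact ERSE match, from -65 to -47 relative to its start. Hsp90b1 held 2, from -212 to -194 and, on the opposite strand, from -107 to -89. Runs that differed from the fixed letters, such as ccaatcagcggcctccaac in Hspa5, were not counted. The match in Herpud1 was ERSE-II, from -52 to -42. These 3 genes were chosen because 1 fell, 1 gave no call and 1 rose in hairpin 1 cells. The other ERSE matches, written in the direction of the element, were as follows.
Calr: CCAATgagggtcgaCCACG
Canx: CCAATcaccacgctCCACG
Creld2: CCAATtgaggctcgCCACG
Dnajc3: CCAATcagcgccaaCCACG
Pdia6: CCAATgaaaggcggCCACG
Syvn1: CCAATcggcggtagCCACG
Those in Calr and Creld2 lay on the strand opposite to the gene. A match is a run of letters and not a measured site of binding.

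Pthlh itself was at 0.752 and 0.966 TPM in shNT, 0 and 0.106 in hairpin 1 and 0.0423 and 0.263 in hairpin 2 libraries. Its levels in the knockdown libraries lay below both shNT values, at a level under 1 TPM throughout, so the check of the labels rests on low values. In the limma model without a filter its log2(TPM + 1) difference was -0.82 for hairpin 1 (adjusted p = 0.00837) and -0.69 for hairpin 2 (adjusted p = 0.0583). Each library was scaled to the same total of TPM, and the number of reads is unknown. The small-RNA entry Mir6236 took 34.1% and 24.3% of all TPM in shNT, 20.4% and 19.7% in hairpin 1 and 23.4% and 21.4% in hairpin 2, which lowers every other gene of a library in proportion. Of 8 ductal markers 7 reached 1 TPM, with a summed level of 4112 to 4275 TPM in shNT, 4541 to 4607 in hairpin 1 and 3860 to 3946 in hairpin 2. Within that sum Krt19, Sox9, Krt8 and Muc1 were higher in hairpin 1 than in shNT, and Krt18, Krt7 and Cdh1 lower (limma adjusted p under 0.05). Epcam, a defining epithelial marker, was at 0.605 TPM or below in every library. Plasma and B cell markers, from the best-known ER-rich immune cells, summed to at most 0.346 TPM, with 7 of 10 in the table and 3 of those at 0 throughout. Islet markers summed to at most 0.105 TPM, fibroblast markers to at most 0.522 and endothelial markers to at most 0.117. T and NK cell markers summed to 1.26 to 1.99 TPM, of which all but at most 0.418 was Cd3d. Acinar markers summed to 12.1 to 20.3 TPM, of which all but 1.47 was Cela1, and myeloid markers to 61.9 to 78.9 TPM, of which all but 2.86 was Cd14, with Ptprc at 0.0495 or below.

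Most of the ER genes were more abundant in these cells than the median tested gene. On the TPM scale, which is per length, their means over the 6 libraries ran from 5.24 for Trib3 to 777 for Calr, with a median of 50.1 against 14.4 for all tested genes. Of the 32, 23 lay above the median of tested genes and 10 in the highest 10%. Most of the sensors and factors, Trib3, Eif2ak3, Ern1, Ppp1r15a and Ddit3, lay below that median, as did Dnajb9, Sel1l, Edem1 and Derl2. Libraries of a group were close for most of them: in all but 5 the higher library was at most 1.2 times the lower in every group. Those 5 were Manf, Sec61b, Dnajb9, Trib3 and Eif2ak3.

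**Figure D1:**
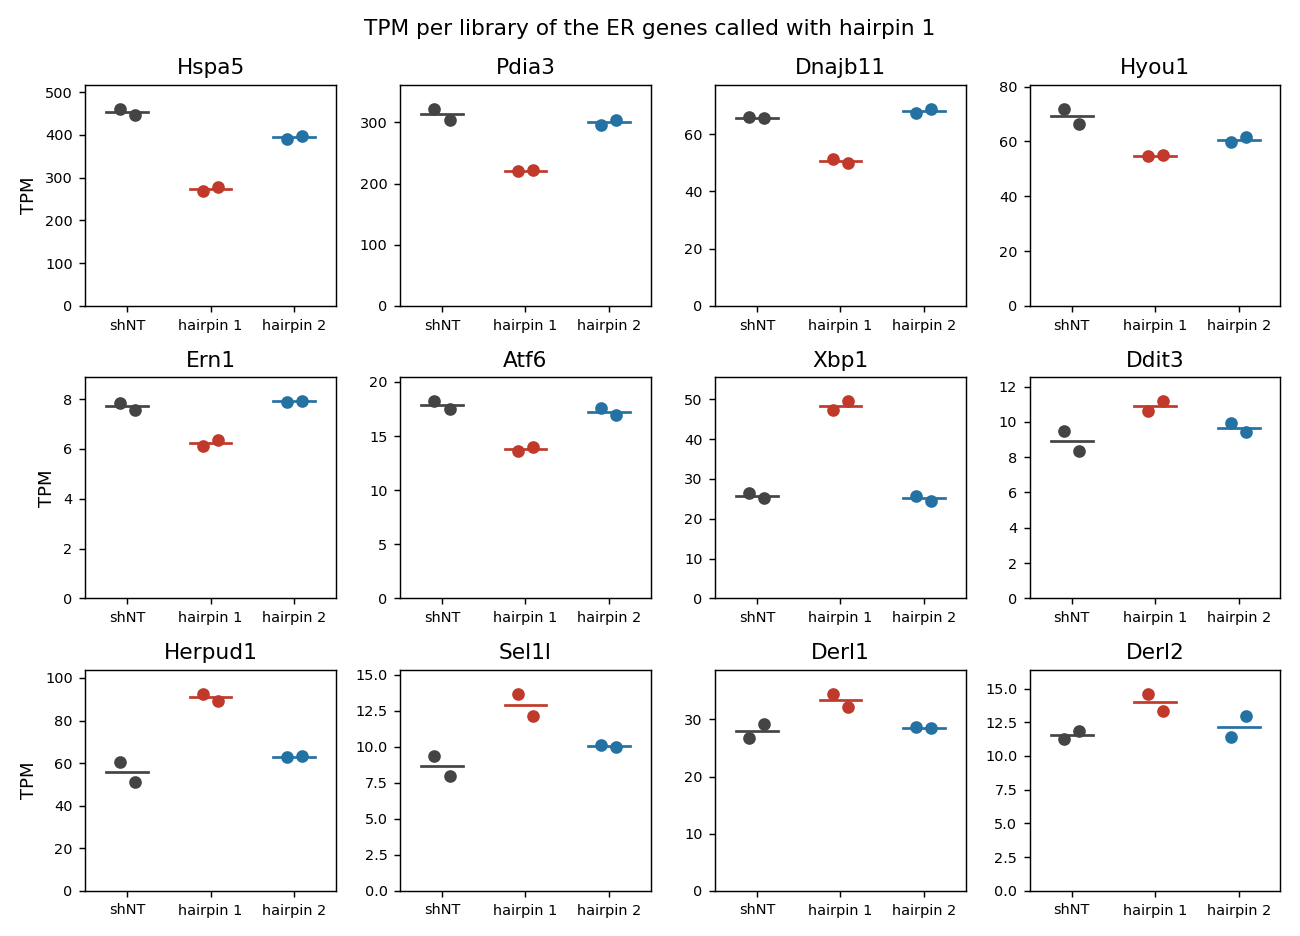
TPM (vertical axis, from 0) of the 12 ER genes called in hairpin 1 cells, 1 panel per gene and 1 point per library, with a bar at the mean of each group of 2. Xbp1, Herpud1 and Sel1l sit higher in both hairpin 1 libraries and Hspa5, Pdia3, Dnajb11, Hyou1, Atf6 and Ern1 lower than in both shNT libraries.

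In hairpin 1 cells the chaperone BiP (Hspa5), its co-factors Dnajb11 and Hyou1 and the isomerase Pdia3 were lower, and the ERAD genes Herpud1 and Sel1l together with Xbp1 were higher. Changes are given as log2(TPM + 1) differences with their standard error from limma, fitted over 11549 genes, and a gene is said to have risen or fallen where the Benjamini-Hochberg adjusted p was under 0.05. By this rule 6 of the 32 genes rose and 6 fell against shNT, 37.5% of them. Over all tested genes 50.2% changed, 32.1% higher and 18.1% lower, so the share of the ER genes that changed was below the background, and the share that fell, 18.8%, was near it. The median difference of the 32 genes was 0.05, beside 0.11 over all tested genes, and it was -0.04 beside 0.02 with median-ratio scaling, so its direction depends on the scaling. By role, 0 of 15 chaperones and isomerases rose and 4 fell, 2 of 8 sensors and factors rose and 2 fell, and 4 of 9 ERAD and translocation genes rose and 0 fell. The 4 were 2 with median-ratio scaling, 2 with chromosome centring and 1 without small-RNA entries, while the chaperones that fell numbered 5, 6 and 5. Shares over all tested genes moved the same way in those settings, to 24.0%, 20.2% and 14.8% higher and 23.2%, 20.5% and 24.3% lower. In bulk RNA, fewer cells that express a gene and less RNA per cell cannot be told apart.

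Hspa5, which encodes BiP, the ER Hsp70 chaperone that also holds the sensors inactive (chr2:34771970-34777547, plus strand, mm10), had 462 and 446 TPM in shNT, 269 and 278 in hairpin 1 and 391 and 398 in hairpin 2. The 3 groups did not overlap, with hairpin 1 lowest. Its mean was 454 ± 11.3 TPM in shNT and 274 ± 7.0 in hairpin 1 (SD, n = 2 each), 60.3% of the control, a log2 difference of -0.73 ± 0.05 (limma adjusted p = 0.000343).
Pdia3 (ERp57; chr2:121413775-121438687, plus strand), the disulfide isomerase that works with calnexin and calreticulin on glycoproteins, had 323 and 304 TPM in shNT, 220 and 222 in hairpin 1 and 296 and 304 in hairpin 2. Hairpin 1 libraries lay below all others, at 70.6% of shNT (-0.50 ± 0.05, limma adjusted p = 0.00110). Dnajb11, a J-domain co-chaperone of BiP on chromosome 16, had 66.0 and 65.5 TPM in shNT, 51.3 and 50.04 in hairpin 1 and 67.3 and 68.9 in hairpin 2, and fell by 0.37 ± 0.04 in hairpin 1 cells (limma adjusted p = 0.00134). Hyou1, an Hsp110-type nucleotide exchange factor for BiP on chromosome 9, had 72.0 and 66.2 TPM in shNT, 54.7 and 54.9 in hairpin 1 and 59.6 and 61.5 in hairpin 2, and fell by 0.33 ± 0.05 in hairpin 1 cells (limma adjusted p = 0.00480). Both knockdown groups lay below shNT for Hyou1, and only hairpin 1 passed the test.

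The other 11 chaperones and isomerases gave no call in hairpin 1 cells. Hsp90b1 (GRP94), the ER Hsp90, had 281 and 272 TPM in shNT, 277 and 280 in hairpin 1 and 271 and 278 in hairpin 2, with overlapping groups and a hairpin 1 difference of 0.01 (95% interval -0.10 to 0.12, limma adjusted p = 0.871), which turned to -0.18 and a call as lower with chromosome centring (adjusted p = 0.0210, the lowest over 18 alternatives). Calr, the lectin chaperone calreticulin, was at 755 and 743 TPM in shNT and 766 and 767 in hairpin 1 (0.03, interval -0.10 to 0.17). Its membrane-bound relative Canx was at 158 and 148 TPM in shNT and 140 and 138 in hairpin 1 (-0.13, limma adjusted p = 0.0619). Canx was called lower in 6 of 18 alternatives (3 of them scalings, with chromosome and local centring and without shNT replicate 2), down to -0.31, with adjusted p down to 0.00703. Hsp90b1, Calr and Canx lie on chromosomes 10, 8 and 11. Among the isomerases, Pdia4 differed by -0.02, Pdia6 by 0.17 and P4hb, the archetypal protein disulfide isomerase, by 0.11. Of 8 genes with an ERSE match in their window, 1 was called in hairpin 1 cells, Hspa5, beside 50.2% of all tested genes. Hsp90b1, Calr, Canx, Creld2, Dnajc3, Pdia6 and Syvn1 gave no call in the reported fit, though Hsp90b1 and Canx did in the alternatives just given, Pdia6 in 2 (higher) and Dnajc3 in 1 (higher). Dnajb9 (ERdj4), a BiP co-chaperone with strong stress induction, had 6.24 and 5.35 TPM in shNT, 8.77 and 8.12 in hairpin 1 and 4.62 and 6.77 in hairpin 2. Both hairpin 1 libraries were above all others, but the difference of 0.48 ± 0.16 missed the threshold (limma adjusted p = 0.0555). Dnajb9 was called higher in some alternatives, such as the fit of genes with a mean TPM of at least 5 and that of only the compared groups. Sdf2l1, Creld2 and Dnajc3 differed by 0.13, 0.02 and 0.14 in hairpin 1 cells. Manf, a secreted stress-induced factor, had 58.0 and 81.3 TPM in shNT, a replicate ratio of 1.40, and all 4 knockdown libraries lay between those values, at 66.2 and 67.4 in hairpin 1 and 66.6 and 67.1 in hairpin 2. Its hairpin 1 difference of -0.04 was 0.20 without shNT replicate 2 and -0.28 without shNT replicate 1.

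**Figure D2:**
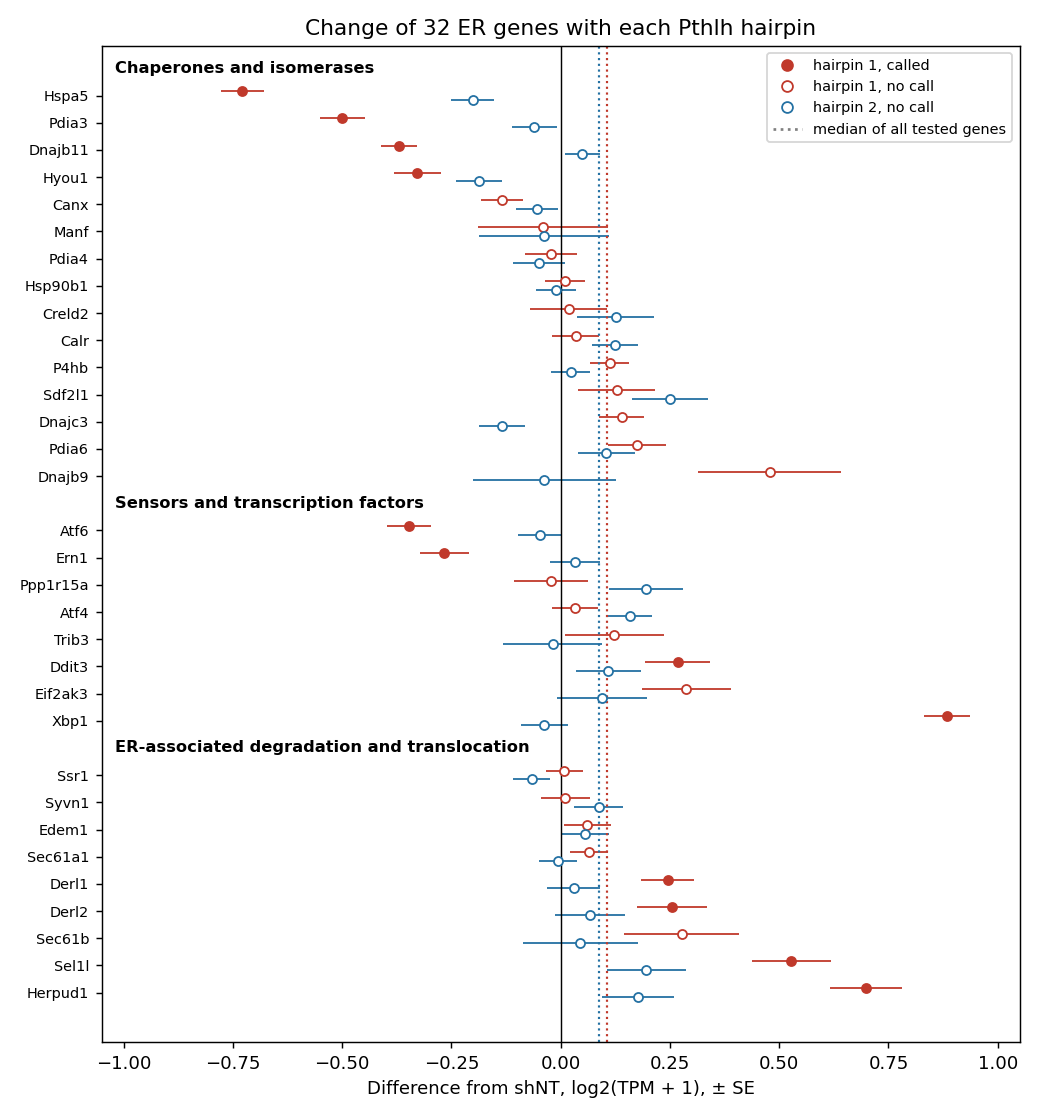
Log2(TPM + 1) difference from shNT (horizontal) with its standard error from limma for hairpin 1 and hairpin 2, for the 32 genes grouped by role, with dotted lines at the medians of all tested genes. Filled points have an adjusted p under 0.05: 12 in hairpin 1 and 0 in hairpin 2 cells, with Xbp1 (0.88) and Hspa5 (-0.73) farthest from 0.

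Among sensors and transcription factors, Xbp1 rose most and the sensors Ern1 and Atf6 fell. Xbp1, the bZIP factor whose mRNA IRE1 splices (chr11:5520659-5525893, plus strand), had 26.4 and 25.1 TPM in shNT, 47.2 and 49.5 in hairpin 1 and 25.7 and 24.4 in hairpin 2. Hairpin 1 libraries stood apart, at 48.4 ± 1.64 against 25.8 ± 0.915 TPM (SD, n = 2 each), 1.88 times the control. The log2 difference was 0.88 ± 0.05 (limma adjusted p = 0.000251) and it was the largest of the 32 genes. The spliced and unspliced forms are summed in this value. Atf6 (chromosome 1), the membrane-bound factor cleaved in the Golgi, had 18.2 and 17.5 TPM in shNT, 13.6 and 14.0 in hairpin 1 and 17.6 and 16.9 in hairpin 2. It fell to 77.5% of shNT in hairpin 1 cells (-0.35 ± 0.05, limma adjusted p = 0.00339). Ern1 (IRE1, chromosome 11) had 7.85 and 7.58 TPM in shNT, 6.13 and 6.35 in hairpin 1 and 7.90 and 7.92 in hairpin 2, and fell by 0.27 ± 0.06 in hairpin 1 cells (limma adjusted p = 0.0118). That call was lost without hairpin 1 replicate 1 (adjusted p = 0.0674, the highest over 18 alternatives, which ran from 0.00336), with a log2 difference between -0.44 and -0.24 throughout. Eif2ak3 (PERK, chromosome 6) had 5.59 and 4.596 TPM in shNT, 6.75 and 6.09 in hairpin 1 and 5.28 and 5.69 in hairpin 2, a hairpin 1 difference of 0.29 that missed the threshold (limma adjusted p = 0.0624).

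Of the 4 factors downstream of PERK, 1 passed the test. Atf4, whose control is mainly translational, had 201 and 201 TPM in shNT, 209 and 201 in hairpin 1 and 217 and 232 in hairpin 2, with a hairpin 1 difference of 0.03 (95% interval -0.10 to 0.16). Ddit3 (CHOP, chromosome 10), a pro-apoptotic factor raised by ATF4, had 9.47 and 8.35 TPM in shNT, 10.6 and 11.2 in hairpin 1 and 9.92 and 9.43 in hairpin 2. It rose in hairpin 1 cells (0.27 ± 0.07, limma adjusted p = 0.0293), and this call was lost in 12 of 18 alternatives, with adjusted p from 0.0140 to 0.950, among them each fit without shNT replicate 2 or without any of the 4 hairpin libraries (0.0562 to 0.139). Ppp1r15a (GADD34), which restores translation, and Trib3, a pseudokinase target of CHOP, gave no call, with hairpin 1 differences of -0.02 and 0.12.

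Herpud1 and Sel1l led the ERAD genes. Herpud1 (chr8:94386438-94395377, plus strand), a membrane protein that assembles the HRD1 ubiquitin ligase complex, had 60.5 and 51.1 TPM in shNT, 92.6 and 89.2 in hairpin 1 and 62.8 and 63.2 in hairpin 2. Every knockdown library was above both shNT libraries, and hairpin 1 was highest, at 1.63 times shNT (0.70 ± 0.08, limma adjusted p = 0.00173). Sel1l (chromosome 12), the adaptor that carries substrates to HRD1, had 9.35 and 8.01 TPM in shNT, 13.7 and 12.2 in hairpin 1 and 10.1 and 9.998 in hairpin 2, and rose by 0.53 ± 0.09 in hairpin 1 cells (limma adjusted p = 0.00563).
Its call was lost when small-RNA entries were removed and TPM rescaled (adjusted p = 0.0513, range 0.00409 to 0.0513 over 18 alternatives). Derl1 (26.8 and 29.1 TPM in shNT, 34.5 and 32.1 in hairpin 1, 28.6 and 28.5 in hairpin 2) and Derl2 (11.3 and 11.8, 14.6 and 13.4, 11.4 and 13.0 TPM), derlins of the retrotranslocation channel, each rose by 0.25 in hairpin 1 cells (limma adjusted p = 0.0200 and 0.0448). Those calls were lost in 7 alternatives for Derl1 (adjusted p 0.0100 to 0.565) and 12 for Derl2 (0.0394 to 0.547). Among these, Derl1 lost it without shNT replicate 1 (0.0506) and without hairpin 1 replicate 1 (0.111). Derl2 lost it without any of the shNT or hairpin 1 libraries (0.0611 to 0.202).

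The ligase itself, Syvn1 (HRD1), had 21.8 and 21.6 TPM in shNT, 21.5 and 22.3 in hairpin 1 and 24.2 and 22.2 in hairpin 2, a hairpin 1 difference of 0.01 (95% interval -0.13 to 0.15). Edem1, a mannose-trimming lectin of ERAD, differed by 0.06. The translocon genes Sec61a1 (channel subunit), Sec61b (its small subunit) and Ssr1 (TRAP subunit) differed by 0.07, 0.28 and 0.01 with no call. Sec61b had 238 and 316 TPM in shNT, a replicate ratio of 1.33, and 329 and 336 in hairpin 1, so its interval was wide (-0.05 to 0.61).

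Of the 12 calls in hairpin 1 cells, 5 held in all 18 alternatives: Hspa5, Pdia3, Atf6, Xbp1 and Herpud1. Without hairpin 1 replicate 1 fewer of the ER genes were called higher, and fewer of all tested genes were too. Dnajb11 and Hyou1 lost theirs in 1 alternative, the centring on neighbouring genes described next.

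The genes that fell lay mostly in stretches of the genome where other genes were lower too. In hairpin 1 cells the median difference of all tested genes was -0.27 on chromosome 2, -0.21 on chromosome 16 and -0.13 on chromosome 9, while on 10 (Hsp90b1), 11 (Xbp1) and 8 (Herpud1) it was 0.20, 0.17 and 0.15. For each ER gene the median of its 50 nearest tested genes was taken. That median was below 0 for 5 of the 6 genes that fell, 0 of the 6 that rose and 4 of the 20 without a call. The matching counts over all tested genes are not given here, and the median difference of those genes was 0.11. A cause was not tested. Hspa5 differed by -0.73 with neighbours at -0.33, a gap of -0.40, and Pdia3 by -0.50 with neighbours at -0.25. Dnajb11 had neighbours at -0.26 and a gap of -0.11, and Hyou1 neighbours at -0.19 and a gap of -0.14. With each library centred on these neighbours, the limma adjusted p of Dnajb11 was 0.0909 (range 0.000663 to 0.0909 over 18 alternatives) and that of Hyou1 0.0674 (0.00155 to 0.0674). Atf6 kept a gap of -0.25 from neighbours at -0.10. Ern1 was lower among neighbours that were slightly higher (0.08). Xbp1 and Herpud1 exceeded neighbours at 0.15 and 0.19 by 0.73 and 0.51. Derl1, Derl2 and Ddit3 exceeded theirs by 0.11, 0.11 and 0.01 and lost their calls with this centring. Canx and Ppp1r15a (-0.30 and -0.46, limma adjusted p = 0.0136 and 0.0107) gained a call as lower, and Sdf2l1 and Trib3 (0.39 and 0.37, adjusted p = 0.0212 and 0.0455) as higher.

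**Figure D3:**
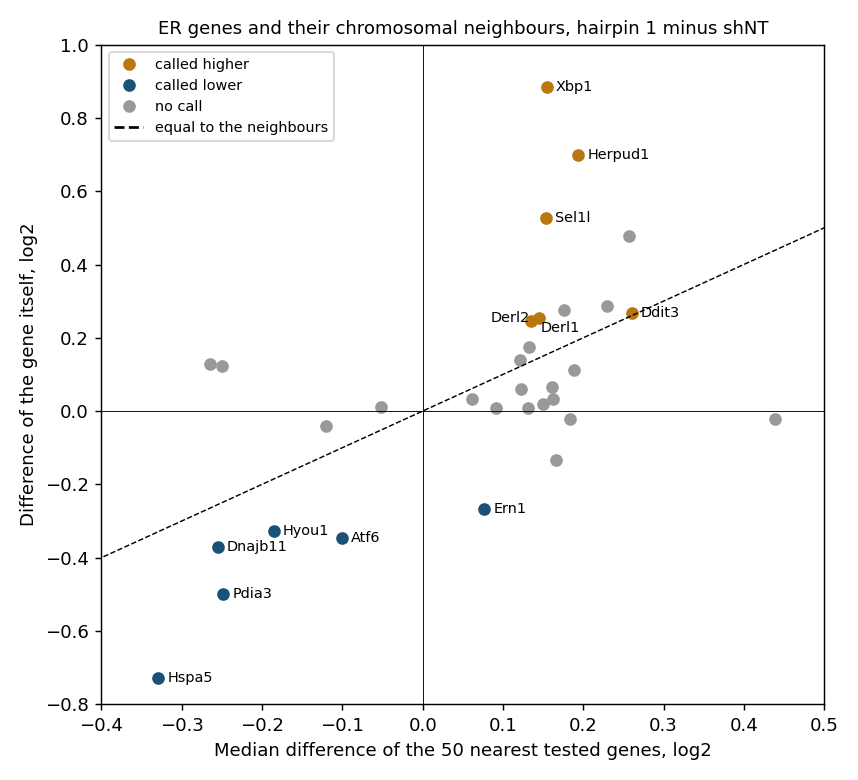
Hairpin 1 log2(TPM + 1) difference of each of the 32 genes (vertical) against the median difference of its 50 nearest tested genes (horizontal), coloured by call, with a dashed line where both are equal. Hspa5, Pdia3, Dnajb11 and Hyou1 have neighbours between -0.33 and -0.19, while Xbp1 and Herpud1 lie far above the line.

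In hairpin 2 cells 0 of the 32 genes passed the limma threshold, beside a background of 9.63% of tested genes (6.62% higher and 3% lower), and 5 had an unadjusted p under 0.05. All 32 differences from shNT lay between -0.20 and 0.25, with 95% intervals reaching from -0.44 to 0.47, and the median was 0.03 beside 0.09 over all tested genes. Hspa5 was at 86.9% of shNT, a difference of -0.20 ± 0.05 (95% interval -0.32 to -0.08, limma adjusted p = 0.0601), with both hairpin 2 libraries below both shNT libraries. Hyou1 was at 87.6% (-0.19 ± 0.05, limma adjusted p = 0.0813). Both passed the threshold with median-ratio scaling, which lowers the median of all tested genes from 0.09 to -0.00. Without shNT replicate 2, which leaves 1 shNT library, Pdia6, Sdf2l1, Manf and Sec61b differed by 0.19 to 0.35. Hspa5 and Hyou1 differed by -0.23 and -0.25 in that fit. Calls appeared for all of these there, where larger shares of all tested genes were called higher and lower too. Without shNT replicate 1 limma called Herpud1 higher (0.30) and Manf lower (-0.28). Xbp1, at 97.4% of shNT, had an interval of -0.17 to 0.10. Calr differed by 0.12, Atf4 by 0.16 and Sdf2l1 by 0.25, each with an interval whose lower bound lay between -0.01 and 0.03.

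The hairpins were compared directly, since both comparisons above share the shNT libraries. Of the 32 genes 5 were higher in hairpin 2 than hairpin 1 cells and 5 lower, beside 40.1% of all tested genes (19.9% higher and 20.2% lower). Higher were Hspa5 (0.53 ± 0.05, limma adjusted p = 0.00120), Pdia3 (0.44), Dnajb11 (0.42), Atf6 (0.30) and Ern1 (0.30). Lower were Xbp1 (-0.92 ± 0.05, limma adjusted p = 0.000306), Herpud1 (-0.52), Sel1l (-0.33), Dnajc3 (-0.27) and Derl1 (-0.21). Dnajb9 differed by -0.52 and missed the threshold (limma adjusted p = 0.0531), though it was called lower in some alternatives, such as without small-RNA entries. Dnajc3 (p58IPK), a co-chaperone that also restrains PERK, had 24.4 and 23.1 TPM in shNT, 26.7 and 25.9 in hairpin 1 and 21.1 and 22.1 in hairpin 2. Its hairpins lay on either side of shNT, and neither passed the test against it. Hspa5, Xbp1 and Herpud1 held this call in all 18 alternatives. Sel1l, Derl1, Ern1, Dnajc3 and Atf6 lost theirs without some of the 4 hairpin libraries: any of them for Sel1l (adjusted p 0.0617 to 0.161) and Derl1 (0.0713 to 0.182), all but hairpin 1 replicate 2 for Ern1 (0.0630 to 0.0650), all but hairpin 2 replicate 2 for Dnajc3 (0.0522 to 0.0749), and replicate 1 of either hairpin for Atf6 (0.0536 and 0.0577). Pdia3 lost its call with chromosome centring (0.16, adjusted p = 0.0715). With local centring Dnajb11 was at 0.11 (adjusted p = 0.108), Atf6 at 0.15 (0.112) and Derl1 at -0.18 (0.0527). Sel1l, Derl1 and Dnajc3 also lost theirs without small-RNA entries (adjusted p = 0.130, 0.182 and 0.128), and Sel1l with chromosome centring (0.0727).

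With the 2 hairpin means averaged, as the knockdown comparison, 3 of the 32 genes were higher than shNT (Xbp1, Herpud1 and Sel1l) and 5 lower (Hspa5, Pdia3, Hyou1, Dnajb11 and Atf6), beside 39.4% of all tested genes (27.3% higher and 12.1% lower). Hspa5 differed by -0.46 ± 0.04 (limma adjusted p = 0.00189), Xbp1 by 0.42 ± 0.05 (0.00276), Herpud1 by 0.44 ± 0.07 (0.00808) and Hyou1 by -0.26 ± 0.05 (0.0105). The averaged value of Xbp1 stands for no hairpin: 1 hairpin gave 0.88 and the other -0.04. Dnajb11 likewise gave -0.37 with hairpin 1 and 0.05 with hairpin 2, and Pdia3 and Atf6 gave -0.06 and -0.05 with hairpin 2. Hspa5 and Hyou1 (-0.20 and -0.19) and Herpud1 and Sel1l (0.18 and 0.20) kept their direction with hairpin 2, without a call. When the 4 knockdown libraries were treated as 1 group, limma called 0 of the 32 genes, 2 had an unadjusted p under 0.05, and 1 of 11549 genes was called. Dnajb11 lost its call without any of the 4 hairpin libraries (adjusted p 0.0550 to 0.0707), Atf6 without any of those or shNT replicate 1 (0.0519 to 0.0699), and Sel1l without hairpin 1 replicate 1 or either hairpin 2 library (0.0543 to 0.0575). Without small-RNA entries Xbp1 (0.27), Herpud1 (0.28) and Sel1l (0.22) all lost their calls (adjusted p = 0.0513, 0.0779 and 0.195). With chromosome centring Pdia3, Hyou1, Dnajb11 and Sel1l lost theirs (adjusted p = 0.0708, 0.0830, 0.157 and 0.105). With local centring those 4 and Atf6 did (0.0622, 0.149, 0.304, 0.0640 and 0.0739). Without shNT replicate 2, which leaves 1 shNT library, more of the ER genes and more of all tested genes were called higher. The 24 remaining ER genes gave no call in this comparison.

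Summed over roles, the 15 chaperones and isomerases held 2845 and 2803 TPM in shNT, 2567 and 2589 in hairpin 1 and 2790 and 2856 in hairpin 2. The hairpin 1 sums were the lowest, and shNT and hairpin 2 overlapped. Abundant genes weigh most in such a sum. Hspa5 and Pdia3, both on chromosome 2, had means of 454 and 313 TPM in shNT and 274 and 221 in hairpin 1. Of the 15 genes 4 fell and 0 rose in hairpin 1 cells, and Calr and P4hb had higher means there than in shNT. ERAD and translocation genes summed to 594 and 667 TPM in shNT, 743 and 742 in hairpin 1 and 635 and 657 in hairpin 2. Here the hairpin 1 sums were the highest. Sec61b, which gave no call, had means of 277 TPM in shNT and 333 in hairpin 1. Of the 9 genes 4 rose and 0 fell in hairpin 1 cells. Sensors and factors summed to 280 and 276 TPM in shNT, 307 and 301 in hairpin 1 and 296 and 311 in hairpin 2. All 32 genes together took between 0.362% and 0.382% of TPM in every library. Without small-RNA entries the chaperone share was 0.435% and 0.373% in shNT, 0.325% and 0.324% in hairpin 1 and 0.367% and 0.366% in hairpin 2, so on that scale both hairpin groups lay below shNT, whose 2 libraries differed most.

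**Figure D4:**
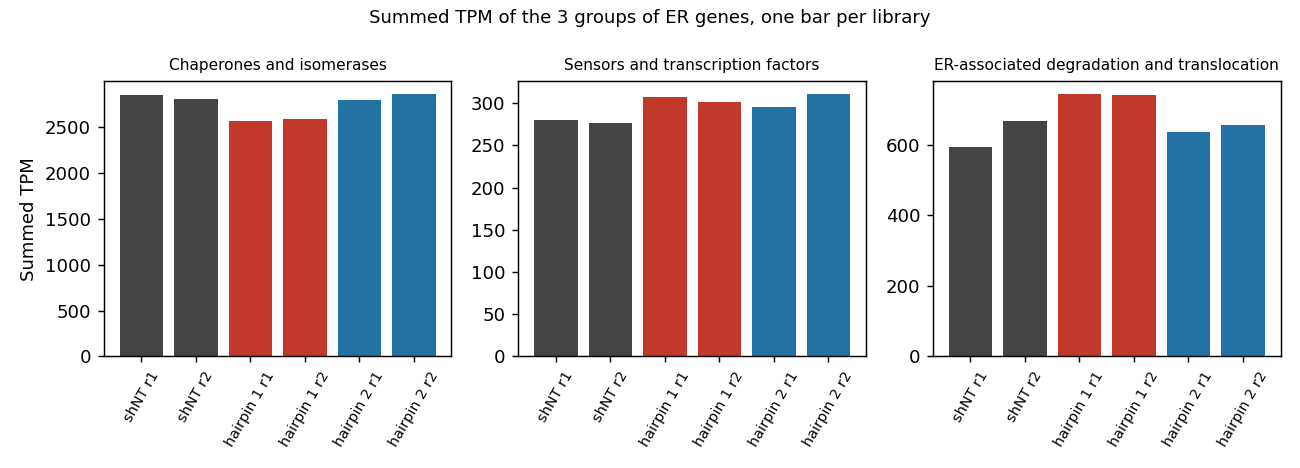
Summed TPM of the 3 role groups in each of the 6 libraries, 1 panel per group and 1 bar per library, from 0. Chaperones are lowest in hairpin 1 (2567 and 2589 TPM) and ERAD and translocation genes highest there (743 and 742). Abundant genes weigh most in these sums.

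Other genes of the pathway were taken from 5 lists chosen by function. Their counts stand beside 32.1% of all tested genes higher and 18.1% lower in hairpin 1 cells, and 6.62% and 3% in hairpin 2 cells. The hairpin 1 shares were 24.0% and 23.2% with median-ratio scaling and 14.8% and 24.3% without small-RNA entries. With chromosome centring they were 20.2% and 20.5%. The hairpin 2 shares higher were 2.01%, 1.27% and 1.54% in the same settings. Of 15 tested genes of the ATF4 and CHOP program 8 rose and 1 fell in hairpin 1 cells (53.3% and 6.67%), with a median of 0.52 beside 0.11 over all tested genes, and 1 rose in hairpin 2 cells (6.67%), with a median of 0.09. Stc2, a secreted stanniocalcin, had 1.97 and 2.85 TPM in shNT, 16.7 and 17.7 in hairpin 1 and 3.96 and 4.64 in hairpin 2 and rose in hairpin 1 cells (2.43, limma adjusted p = 0.000213) in the reported fit and all 18 alternatives. Its hairpin 2 difference of 0.64 (limma adjusted p = 0.0474) was called in only 5 of 18 alternatives (adjusted p 0.00847 to 0.221), not with median-ratio scaling, either centring, or without shNT replicate 1 or any of the 4 hairpin libraries. Vldlr, a lipoprotein receptor, had 2.03 and 2.06 TPM in shNT and 6.09 and 5.43 in hairpin 1 (1.15 ± 0.09, limma adjusted p = 0.000475). Atf3, a stress-induced bZIP factor that ATF4 is known to raise, went the other way, from 4.40 and 4.61 TPM in shNT to 1.49 and 1.45 in hairpin 1 (-1.16 ± 0.09, limma adjusted p = 0.000475).

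Of 20 other ERAD genes 13 rose and 2 fell in hairpin 1 cells (65% and 10%), with a median of 0.27, and 0 changed in hairpin 2 cells. The hairpin 1 counts were 8 and 2 with median-ratio scaling, 2 and 2 without small-RNA entries and 6 and 0 with chromosome centring. The number that rose thus depends on the scaling, as does the share of all tested genes that rose. Os9, a lectin that delivers glycoproteins to HRD1, had 14.5 and 14.8 TPM in shNT, 21.9 and 21.5 in hairpin 1 and 15.98 and 15.4 in hairpin 2 (hairpin 1 0.54 ± 0.05, limma adjusted p = 0.000647). The ER ubiquitin ligases Rnf139 and Rnf5 rose by 0.39 and 0.63 in hairpin 1 cells, calls that were lost without small-RNA entries for Rnf139 (adjusted p = 0.101, from 0.00511 over 18 alternatives) and without hairpin 1 replicate 2 for Rnf5 (0.0526, from 0.000423). Of 11 other sensors and genes of eIF2 alpha control 6 rose and 2 fell with hairpin 1 (54.5% and 18.2%) and 2 rose with hairpin 2 (18.2%). The hairpin 1 counts were 4 and 3 with median-ratio scaling, 1 and 2 without small-RNA entries and 2 and 2 with chromosome centring, and with hairpin 2 all 3 gave 0. Called with hairpin 2 in the reported fit were Eif2ak1, the heme-regulated eIF2 alpha kinase (hairpin 1 0.54, hairpin 2 0.24), and Atf6b, the paralog of Atf6. Atf6b had 51.5 and 53.1 TPM in shNT, 61.2 and 63.7 in hairpin 1 and 62.6 and 63.4 in hairpin 2, with rises of 0.25 and 0.26 (limma adjusted p = 0.00615 and 0.0298) and a difference between hairpins of 0.01 (adjusted p = 0.844). The hairpin 2 calls held in 5 of 18 alternatives for Eif2ak1 (adjusted p 0.0296 to 0.789) and 6 for Atf6b (0.0143 to 0.473), and both were lost without any of the 4 hairpin libraries. With hairpin 1 Eif2ak1 held its call in all 18, and Atf6b lost it without small-RNA entries and with either centring (adjusted p up to 0.530). Creb3, an ER-anchored relative of ATF6, rose by 0.39 in hairpin 1 cells, and lost its call without small-RNA entries and with local centring (adjusted p up to 0.0830).

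Of 18 other ER folding genes 6 rose and 3 fell in hairpin 1 cells (33.3% and 16.7%, near the shares over all tested genes) and 0 changed in hairpin 2 cells. The balance turned to 4 and 6 with median-ratio scaling and 3 and 5 without small-RNA entries, and was 6 and 2 with chromosome centring. Calu, the calcium-binding protein calumenin, fell from 278 and 264 TPM in shNT to 217 and 215 in hairpin 1 (-0.33 ± 0.05, limma adjusted p = 0.00357), while Erp29 and Cnpy3, both folding factors, rose by 0.50 and 0.46. Of 22 genes of the translocon, signal peptidase and oligosaccharyltransferase 9 rose and 4 fell in hairpin 1 cells (40.9% and 18.2%), and 0 changed in hairpin 2 cells. The hairpin 1 counts were 4 and 6 with median-ratio scaling, 2 and 7 without small-RNA entries and 1 and 3 with chromosome centring. Sec11c, a catalytic subunit of the signal peptidase, had 99.6 and 111 TPM in shNT, 172 and 169 in hairpin 1 and 115 and 115 in hairpin 2 (0.69 ± 0.06, limma adjusted p = 0.000737). Subunits of the oligosaccharyltransferase went both ways, Ddost by 0.23 and Rpn2, on chromosome 2, by -0.23 in hairpin 1 cells. Both calls were lost with either centring, under which Rpn2 turned to as much as 0.05. They were also lost without hairpin 1 replicate 2, and Rpn2 without hairpin 1 replicate 1 (adjusted p up to 0.886 for Ddost and 0.942 for Rpn2 over 18 alternatives).

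**Figure D5:**
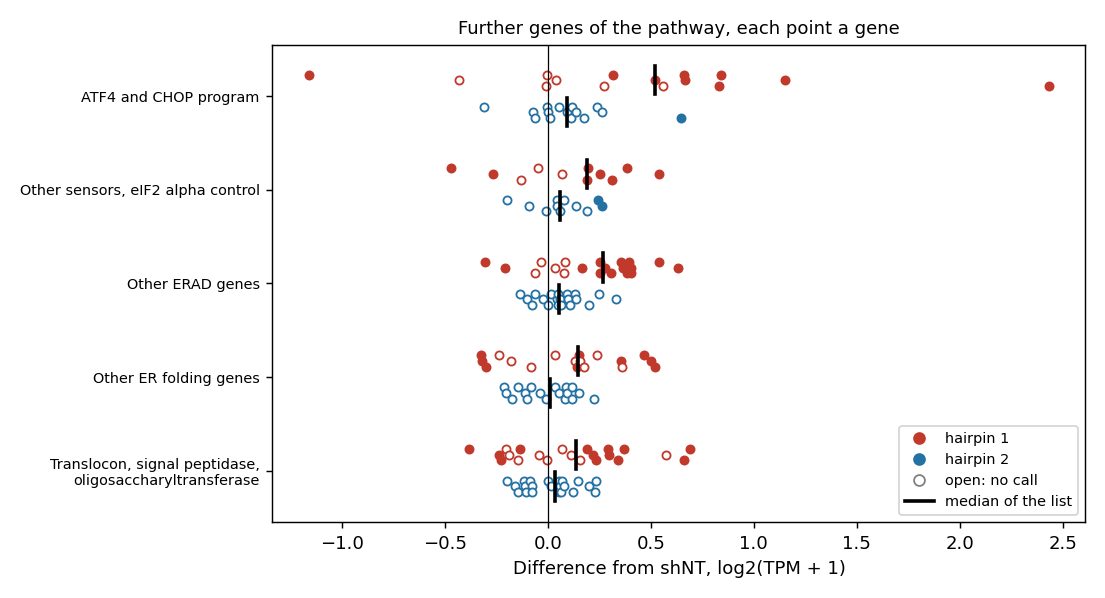
Hairpin 1 and hairpin 2 log2(TPM + 1) differences from shNT for the tested genes of the 5 further pathway lists, 1 point per gene, filled where the adjusted p was under 0.05, with a bar at the median of each list. The ATF4 and CHOP program has the widest spread in hairpin 1 cells, from Atf3 at -1.16 to Stc2 at 2.43.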

How the data were processed

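Total RNA from 6 libraries of mouse pancreatic tumour cells was measured by the authors. They deposited gene-level TPM, each library summing to 1000000. Salmon, DESeq2, R 3.5 and the build mm10 are named per the submitters' processing notes. Their roles, the annotation and any filter are not given in the sources used here. Read counts were not used here, so depth is unknown and no count test was run. Columns headed Ctrl were taken as shNT.

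Genes with at least 1 TPM in at least 2 libraries (11549 of 24493) were fitted on log2(TPM + 1) in R 4.3.3 by limma 3.58.1. That fit had 3 group means and a variance prior following expression, and p-values were adjusted by Benjamini-Hochberg over all tested genes. The pseudocount of 1 understates changes of low genes. Intervals are 95% intervals of the fit and do not cover adjustment. Pthlh was fitted without the filter. The script was checked on simulated data. Gene positions are from GENCODE M21 (GRCm38, the assembly of mm10), and promoter windows from RefSeq. The planned search of protein ends was not run. Xbp1, Hspa5, Atf4, Ddit3, Ern1 and Herpud1 were chosen to be named. So were up to 5 genes per role with the smallest knockdown p, and the 3 with the largest difference between hairpins in each direction. From each further list the 3 genes with the smallest knockdown p were named. Values per library are printed for some of these genes, and only differences for others. The members and lists were chosen with earlier results of these data known. Alternatives covered pseudocount, filter, scaling, variance prior, replicate block, groups fitted, chromosome and each library left out.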

Additional observations from a re-analysis of the deposited data

How the results depend on the processing

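The 5 calls that held throughout are named above. With pseudocounts of 0.1 and 0.5, 6 ER genes rose and 6 fell in hairpin 1 cells, as in the values reported. The number of genes higher in hairpin 1 cells was 3 with median-ratio scaling, 3 with quantile normalization and 2 without small-RNA entries. The shares of all tested genes higher in those fits were 24.0%, 22.7% and 14.8%. Over all tested genes, 24.0% were higher and 23.2% lower in hairpin 1 cells with median-ratio scaling, against 32.1% and 18.1% as reported, and 15.7% and 18.0% in the knockdown comparison, against 27.3% and 12.1%. In the knockdown comparison the genes higher numbered 0 without small-RNA entries (8.33% of all tested genes) and 0 with the hairpins pooled (0%). Those lower numbered 8 with median-ratio scaling (18.0%), 0 pooled (0.00866%) and 3 with local centring (12.9%). In hairpin 2 cells 2 were lower with median-ratio scaling, beside 4.70% of all tested genes. The genes lower in hairpin 2 than hairpin 1 numbered 3 without a filter, 3 without small-RNA entries and 8 with only the compared groups. Over all tested genes 11.2%, 12.5% and 25.2% were lower in those fits. The cause was not tested. Local centring was chosen after seeing the data.

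Leaving out each library in turn, with the lone library of a group assumed to vary like the others, higher and lower genes numbered 2 to 8 and 3 to 6 in the knockdown comparison, 3 to 7 and 5 to 7 in hairpin 1, 0 to 4 and 0 to 2 in hairpin 2, and 3 to 7 and 2 to 8 between hairpins. Without shNT replicate 2 Manf turned from -0.04 to 0.20 in the knockdown, hairpin 1 and hairpin 2 comparisons. It was -0.28 in all 3 without shNT replicate 1. Hsp90b1 turned to -0.18 in hairpin 1 cells with chromosome centring (adjusted p = 0.0210). Of 98 uncalled changes, 62 changed sign under some alternative with no call in either fit.

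With the replicate number as a block, 4 genes were higher and 5 lower in the knockdown comparison, 6 and 6 in hairpin 1, 0 and 0 in hairpin 2, and 5 and 4 between hairpins. Over all tested genes 25.4% were higher and 11.1% lower in the knockdown comparison of that fit, and 31.2% and 17.2% in hairpin 1. The shares were 1.41% and 0.978% in hairpin 2 and 18.1% and 18.3% between hairpins. Deviations of same-numbered libraries correlated at 0.02, 0.02 and -0.04. Such a correlation ignores a shift common to all genes, so it cannot exclude a shared preparation. Mir6236 took a larger share of TPM in replicate 1 than in replicate 2 of every group. The sample titles give only a replicate number. Depth is unknown, and 2 libraries a group limit precision.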
